A study of Mus musculus with 9 samples.

Results

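Reactive gliosis is the response of glial cells to injury, and a set of 32 genes that mark it was followed in retinal RNA at postnatal day 17. The genes were chosen by name, as the rows of the deposited expression table whose symbol is on a list of reactive astrocyte and Müller glia genes. All 32 were found among the 25108 entries of the table, each on a single row. The list mixes genes known to rise in reactive glia with a few that had come up in an earlier look at these data, such as Lad1, Ecel1, Fam107a and Etnppl, so its counts describe the list and are no independent evidence of gliosis.

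The retinas came from C57BL/6 mice in 3 groups of 3 libraries. The RA WT libraries are from wild-type mice kept in room air, the OIR WT libraries from wild-type mice with oxygen-induced retinopathy (OIR), and the OIR KO libraries from IL-19 knockout mice with retinopathy. In this model pups breathe high oxygen, which prunes the growing retinal vessels, and the return to room air leaves a hypoxic retina that sprouts new vessels. All mice were of the same age, and how the knockout was made, whether retinas were pooled and whether a group's libraries come from different animals are not given in the labels. The p-values therefore reflect only the variation among these libraries, which may be technical in part. Room air retinas of the knockout were not analysed here, and the genotypes were compared within retinopathy only.

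The table gives FPKM, fragment numbers scaled to gene length and to the mapped fragments of the library, with no read counts. Absolute depth is not stated, and relative depth, estimated from the steps of low values, ran from 0.854 to 1.14 of the mean. In each library only 20.3% to 35.4% of the low values lay within 0.02 of a whole step, so the estimate is rough. Rod markers summed to 10189 to 11184 FPKM in RA WT, 8955 to 10778 in OIR WT and 8927 to 12426 in OIR KO, the abundance typical of retina. Il19, the targeted gene, was listed at 0 in 8 of the 9 libraries and at 0.0406 FPKM in RA WT 1, so its level does not separate the genotypes. In a two-sided exact permutation test every pair of groups gave p = 1, where 0.1 is the smallest possible. Ddx3y, which is Y-linked, ranged over 6.8 to 15.7 FPKM in 7 libraries and was listed at 0 in the remaining pair (OIR KO 1, RA WT 2). The 6.8 FPKM was in RA WT 3, and the next lowest was 12.9 FPKM in OIR WT 3. Whether a library mixes tissue of both sexes was not tested. Sex thus differed between libraries within RA WT and within OIR KO, so neither group holds only repeats of a single animal. Libraries of a group differed. The leading principal component of all tested genes, with 47.2% of the variance, placed RA WT at -37.2 to -35.9, OIR WT 1 and 3 at 28.9 and 31.3 with OIR WT 2 at 11.7, and OIR KO 2 at 32.5 with OIR KO 1 and 3 at 7.96 and -3.30. Each gene is therefore shown library by library.

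In the healthy retina the main macroglia are Müller cells, which span the whole retina, and astrocytes, which line its inner surface along the vessels. After injury or ischaemia, cytokines of the interleukin-6 family such as LIF activate the transcription factor STAT3 in these cells, and they build intermediate filaments of GFAP, vimentin and nestin, secrete acute-phase proteins and protease inhibitors, and give up part of their supporting functions. GFAP is low in resting Müller cells and is the classical sign of their reaction in retinopathy. Several of the 32 genes are also made by vessels and immune cells, so in whole retina their RNA need not be glial, and more cells of a type cannot be told apart from more RNA per cell.

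Promoter windows were read for the members because many of them moved together. Of the 32 genes, 26 had 1 or more windows in RefSeq's table for build GRCm38.p6, each running from 250 bases before the start of transcription to 50 after it, 32 windows in all. The letters TTCNNNGAA, the core that STAT factors read, were searched with TGANTCA, the AP-1 type, and with TTGCNNCAA and a longer palindrome, the C/EBP type, on both strands. The windows below are those of 5 members with a match, chosen because they show where such letters stand in genes described here, and the capitals mark the matches. Each runs 5′ to 3′ on the gene's own strand up to the start, and the window of Gfap runs on to the end of a match that crosses the start.
Gfap (chr11:102897194-102897450, minus strand): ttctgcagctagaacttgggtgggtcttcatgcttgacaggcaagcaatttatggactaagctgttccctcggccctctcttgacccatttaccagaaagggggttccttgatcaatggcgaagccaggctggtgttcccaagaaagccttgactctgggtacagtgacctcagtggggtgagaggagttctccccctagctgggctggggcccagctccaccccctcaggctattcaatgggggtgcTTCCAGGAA
Emp1 (chr6:135362681-135362930, plus strand): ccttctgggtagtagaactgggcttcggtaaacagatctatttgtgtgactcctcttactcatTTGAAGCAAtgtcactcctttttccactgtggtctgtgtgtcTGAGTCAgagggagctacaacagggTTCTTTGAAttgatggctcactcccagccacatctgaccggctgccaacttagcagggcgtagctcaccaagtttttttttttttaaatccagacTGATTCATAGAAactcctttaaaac
S100a11 (chr3:93520246-93520495, plus strand): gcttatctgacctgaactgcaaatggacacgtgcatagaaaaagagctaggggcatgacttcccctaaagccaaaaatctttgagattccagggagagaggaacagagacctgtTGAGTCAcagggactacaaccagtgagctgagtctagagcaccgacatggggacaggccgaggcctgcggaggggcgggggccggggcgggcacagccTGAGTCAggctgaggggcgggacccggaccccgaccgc
Anxa2 (chr9:69453433-69453682, plus strand): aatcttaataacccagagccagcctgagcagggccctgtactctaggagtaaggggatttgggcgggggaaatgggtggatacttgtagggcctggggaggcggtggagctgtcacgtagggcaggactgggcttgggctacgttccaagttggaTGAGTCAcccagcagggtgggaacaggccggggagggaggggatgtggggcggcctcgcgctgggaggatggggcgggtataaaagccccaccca
Steap4 (chr5:7960222-7960471, plus strand): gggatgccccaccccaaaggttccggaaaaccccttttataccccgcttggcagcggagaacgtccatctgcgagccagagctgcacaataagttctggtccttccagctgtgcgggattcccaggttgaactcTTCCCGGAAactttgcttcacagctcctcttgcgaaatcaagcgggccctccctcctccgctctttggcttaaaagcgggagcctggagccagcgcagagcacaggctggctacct
STAT type letters stood in Gfap, Emp1 and Steap4, that is in 3 of the 32 windows or 9.38%, against 8.30% of all 32851 windows in the table. AP-1 type letters stood in 4 windows (Emp1, S100a11, Anxa2 and Cp) or 12.5%, against 7.81% of all. The C/EBP type matched only in Emp1, 3.12% of windows against 2.09% of all, on the strand opposite to the gene, and the AP-1 and STAT matches nearest the start of Emp1 overlap. These shares lie near the background, a match is a description and not a site, and windows this short do not cover distant elements.

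Of the 32 genes, 18 rose and 2 fell in OIR WT against RA WT, 10 were tested and not called, and 2 (Aspg and Slc10a6) were too low to test. A gene was called at an adjusted p under 0.05 in limma's linear model of log2(FPKM + 0.5), adjusted over all 15678 genes that reached 0.5 FPKM in at least 3 libraries. Over those genes 8.04% were called higher and 7.92% lower. The median log2 change was 1.61 over the 32 members and 0.02 over all genes tested. The lowest OIR WT library lay above the highest RA WT library in 21 members, against 17.8% of all genes tested, and the order was the opposite in 2, against 17.2%. Of the tested members Lad1, Cd109 and Ecel1 were under 0.5 FPKM in every RA WT library and entered the test through the retinopathy libraries. Timp1, Emp1 and Steap4 reached 0.5 FPKM in room air only in RA WT 3, so they also needed retinopathy libraries to enter the test.

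**Figure D1:**
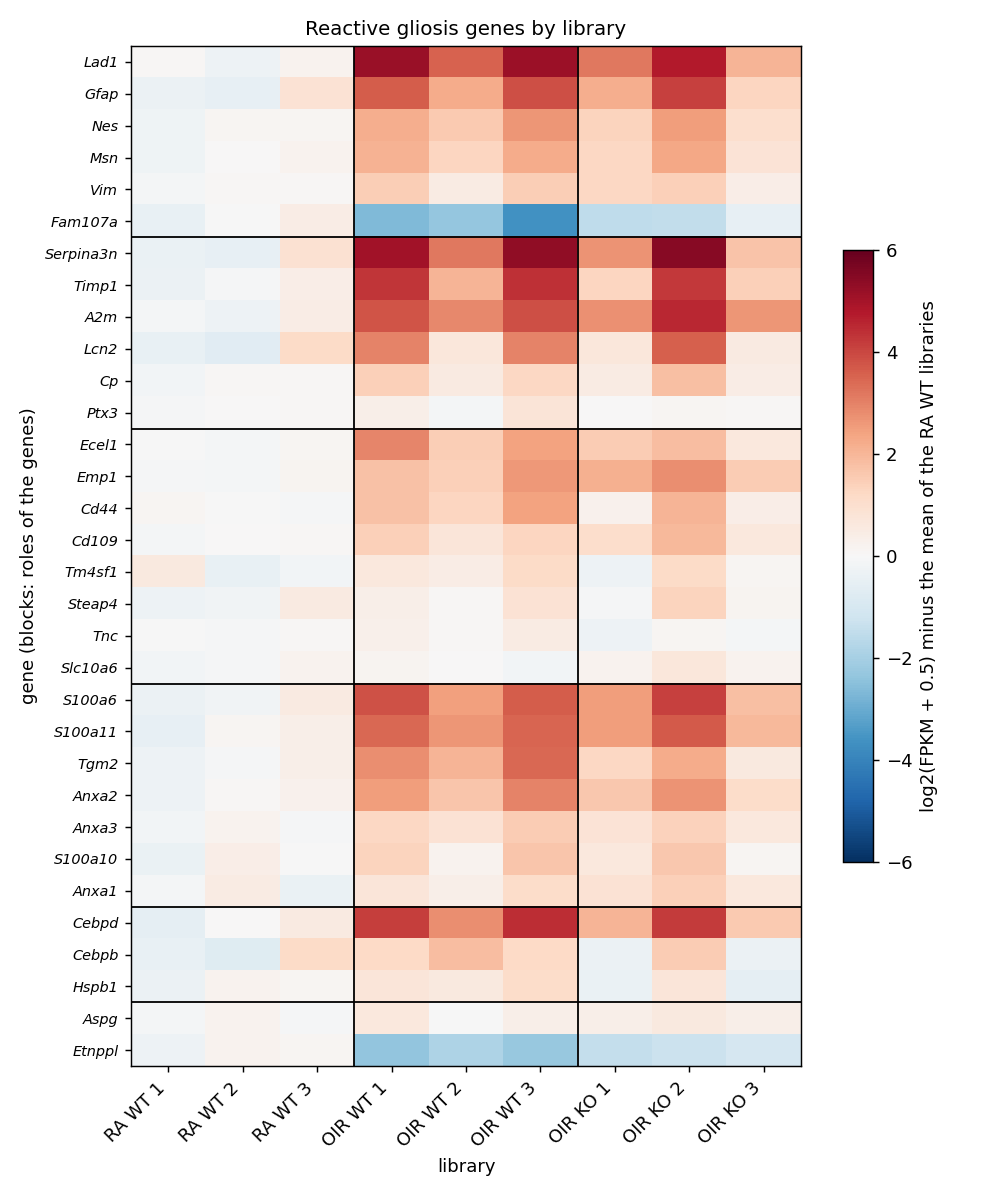
Heat map of the 32 genes (rows, in blocks by role) in the 9 libraries (columns). The colour is log2(FPKM + 0.5) minus the mean of the 3 RA WT libraries, so red is above room air and blue below. Red is deepest in OIR WT 1, OIR WT 3 and OIR KO 2 and paler in OIR WT 2, OIR KO 1 and OIR KO 3, and Fam107a and Etnppl are blue in all 6 retinopathy libraries.

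Among the filament and scaffold genes 5 of 6 rose in OIR WT. Gfap, the glial filament protein (GRCm38 chromosome 11, 102887336 to 102900912, minus strand), was at 7.36, 6.78 and 17.7 FPKM in RA WT 1, 2 and 3. For Gfap, OIR WT 1, 2 and 3 stood at 126, 46.8 and 148 FPKM and OIR KO 1, 2 and 3 at 45.5, 173 and 24.3 FPKM. Every retinopathy library stood above every room air library, but OIR WT 2 and OIR KO 1 and 3 were far below the others. Mean Gfap was 10.6 ± 6.16 FPKM (SD, n = 3) in room air and 107 ± 53.1 FPKM in wild-type retinopathy (log2 3.25, SE 0.75, adjusted p = 0.024). Vim, vimentin, was the most abundant member per length in RA WT, at 86.2, 95.7 and 95.8 FPKM. It reached 259, 131 and 257 FPKM in OIR WT and 216, 252 and 121 FPKM in OIR KO (log2 1.15, SE 0.32, adjusted p = 0.044 for OIR WT against RA WT). OIR WT 2 and OIR KO 3 thus lay closer to room air than to the other retinopathy libraries for this gene. Nes, nestin, a filament of neural progenitors, rose from 1.37, 1.91 and 1.91 FPKM to 9.68, 6.02 and 13.4 FPKM (log2 2.14, SE 0.39, adjusted p = 0.0097), without overlap between the groups. Msn, moesin, which links actin to the membrane, rose from 7.62 to 10.9 FPKM to 23.6 to 44.8 FPKM (log2 1.87, SE 0.39, adjusted p = 0.0162).

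Lad1, ladinin, an anchoring filament protein of epithelia, changed more on the log2 scale than any other member. It was at 0.351, 0.141 and 0.441 FPKM in RA WT 1, 2 and 3. For Lad1, OIR WT 1, 2 and 3 stood at 28.9, 8.87 and 27.3 FPKM and OIR KO 1, 2 and 3 at 6.61, 20.8 and 2.84 FPKM (log2 4.62, SE 0.68, adjusted p = 0.00511 for OIR WT against RA WT). All room air values were under 0.5 FPKM, so this scale understates the change. Lad1 had also come up in an earlier look at these data and entered the test through the retinopathy libraries. Its rank and p-value are therefore no independent evidence of a change. Fam107a, an actin-associated protein of astrocytes, was the member of this group that fell. It was at 7.35, 9.8 and 14.1 FPKM in RA WT 1, 2 and 3. For Fam107a, OIR WT 1, 2 and 3 stood at 1.21, 1.59 and 0.366 FPKM and OIR KO 1, 2 and 3 at 3.17, 3.27 and 6.9 FPKM (log2 -2.86, SE 0.40, adjusted p = 0.00362 for OIR WT against RA WT). OIR KO 3 lay just under the lowest room air library, while the OIR WT libraries were the lowest of all. Fam107a too had come up in an earlier look at these data, so the same limit holds for its p-value.

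**Figure D2:**
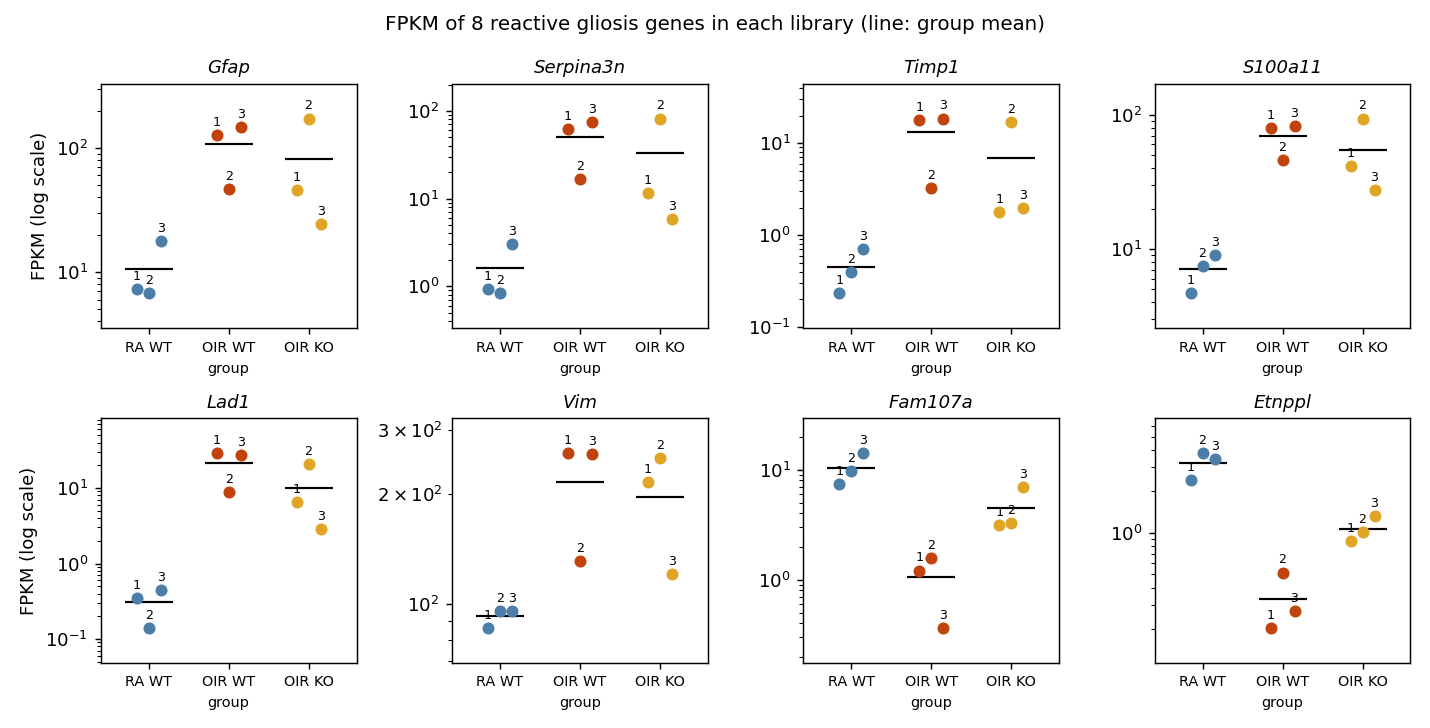
FPKM (log axis) of 8 genes in each library, with the libraries numbered and the group mean as a line. In the first 6 panels OIR WT 2 lies below OIR WT 1 and 3 and OIR KO 2 lies above OIR KO 1 and 3, and in the panels of Fam107a and Etnppl the 3 OIR KO libraries lie between RA WT and OIR WT without overlap.

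Of the 6 secreted acute-phase proteins and protease inhibitors, 3 rose and 3 were not called. Serpina3n, a serine protease inhibitor and a leading marker of reactive astrocytes (chromosome 12, 104406729 to 104414329, plus strand), was at 0.939, 0.835 and 3.05 FPKM in RA WT 1, 2 and 3. For Serpina3n, OIR WT 1, 2 and 3 stood at 61.3, 16.5 and 74.9 FPKM and OIR KO 1, 2 and 3 at 11.6, 81.8 and 5.8 FPKM. Its lowest retinopathy library, OIR KO 3, was still above the highest room air library, RA WT 3. The change in OIR WT passed the test (log2 4.50, SE 0.97, adjusted p = 0.0191). Timp1, an inhibitor of matrix metalloproteinases, was at 0.235, 0.395 and 0.71 FPKM in RA WT, 17.7, 3.27 and 18.6 in OIR WT and 1.78, 16.9 and 1.96 in OIR KO. OIR WT 1, OIR WT 3 and OIR KO 2 stood together at 16.9 to 18.6 FPKM, and the other retinopathy libraries were at most 3.27 FPKM (log2 3.56, SE 0.88, adjusted p = 0.0305 for OIR WT against RA WT). A2m, alpha-2-macroglobulin, a broad protease inhibitor, rose from 0.729, 0.585 and 1.33 FPKM to 17.9, 9.55 and 19.2 FPKM (log2 3.52, SE 0.51, adjusted p = 0.00483) and was at 8.42, 30.2 and 8.05 FPKM in OIR KO.

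Lcn2, lipocalin 2, an iron carrier of inflamed tissue, was not called despite its high values. It was at 2.4, 2.02 and 8.25 FPKM in RA WT 1, 2 and 3. For Lcn2, OIR WT 1, 2 and 3 stood at 30.8, 5.98 and 31.2 FPKM and OIR KO 1, 2 and 3 at 5.99, 46.8 and 5.36 FPKM. RA WT 3 lay above OIR WT 2, so the groups overlap (log2 2.22, SE 0.96, adjusted p = 0.163). Cp, ceruloplasmin, a copper-carrying ferroxidase, ranged over 25.8 to 31.2 FPKM in room air and 42.3 to 79.2 FPKM in wild-type retinopathy, without overlap but short of the threshold (log2 1.06, SE 0.37, adjusted p = 0.0912). It was called when only the 6 wild-type libraries were fitted (adjusted p = 0.0192). Ptx3, pentraxin 3, was at 1.11 to 1.27 FPKM and 1.06 to 2.43 FPKM (log2 0.33, adjusted p = 0.313).

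Of the 8 receptors, membrane and matrix proteins, Ecel1, Emp1, Cd44 and Cd109 rose, Tm4sf1, Steap4 and Tnc were not called and Slc10a6 was not tested. Ecel1, a protease-like enzyme of injured neurons, was at 0.119, 0.0929 and 0.193 FPKM in RA WT, 4.38, 1.28 and 2.87 in OIR WT and 1.35, 1.8 and 0.497 in OIR KO (log2 2.28, SE 0.39, adjusted p = 0.0062 for OIR WT against RA WT). OIR WT 1 was the highest library and OIR KO 3 the lowest of the retinopathy libraries. Ecel1 had come up in an earlier look at these data and entered the test through the retinopathy libraries. Its p-value is therefore no independent evidence of a change. Emp1, an epithelial membrane protein, was at 0.419, 0.393 and 0.576 FPKM in RA WT, 2.78, 2.09 and 5.35 in OIR WT and 3.73, 6.13 and 2.28 in OIR KO (log2 1.94, SE 0.35, adjusted p = 0.00798). Its retinopathy groups overlapped, with OIR KO 2 the highest library and OIR WT 2 the lowest of them, and both groups lay above RA WT. Cd44, the hyaluronan receptor, was at 2.92, 2.62 and 2.52 FPKM in RA WT, 10.1, 7.2 and 16.3 in OIR WT and 3.33, 12.6 and 3.74 in OIR KO (log2 1.81, SE 0.46, adjusted p = 0.0337), with OIR KO 1 and 3 little above room air. Cd109, a surface co-receptor that dampens TGF-beta signalling, was at most 0.0819 FPKM in RA WT and reached 1, 0.425 and 0.88 FPKM across OIR WT (log2 1.15, SE 0.31, adjusted p = 0.0325). The matrix protein tenascin C, Tnc, ranged over 3.12 to 3.5 FPKM in room air and 3.5 to 4.78 FPKM in wild-type retinopathy (log2 0.30, adjusted p = 0.209). Tm4sf1, a tetraspan protein also of endothelium, was at 2.69 to 6 FPKM and 5.4 to 8.95 FPKM in the same groups (adjusted p = 0.251). Steap4, a metalloreductase, did not exceed 1.42 FPKM in any library (adjusted p = 0.502). Slc10a6, a steroid sulfate transporter, did not exceed 0.393 FPKM.

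The calcium-binding S100 proteins and annexins, which work together at membranes, and the cross-linking enzyme transglutaminase 2 (Tgm2) rose in 5 of 7 cases. S100a11 was at 4.69, 7.48 and 8.93 FPKM in RA WT 1, 2 and 3. For S100a11, OIR WT 1, 2 and 3 stood at 79.6, 46.1 and 82.7 FPKM and OIR KO 1, 2 and 3 at 41.6, 93.7 and 27.6 FPKM (log2 3.21, SE 0.45, adjusted p = 0.00447 for OIR WT against RA WT). The lowest retinopathy library, OIR KO 3, lay well above the highest room air library, RA WT 3. S100a6 was at 2.88, 3.28 and 5.84 FPKM in RA WT, 60.9, 23.3 and 52.3 in OIR WT and 23.8, 73.9 and 14.5 in OIR KO (log2 3.30, SE 0.60, adjusted p = 0.0107), again with OIR KO 2 the highest and OIR KO 3 the lowest of the retinopathy libraries. S100a10, the partner of annexin A2, was at 16.6, 28.9 and 21.1 FPKM in RA WT, 56.2, 24.7 and 69.3 in OIR WT and 34.1, 68.5 and 23.5 in OIR KO. RA WT 2 lay above OIR WT 2, so the wild-type groups overlapped and the gene was not called (log2 1.07, SE 0.48, adjusted p = 0.174). Its partner Anxa2 was called, at 7.19, 9.29 and 10.6 FPKM in RA WT, 53.6, 29.9 and 72.96 in OIR WT and 28.4, 61.3 and 19.9 in OIR KO (log2 2.39, SE 0.44, adjusted p = 0.011). Anxa3 rose from 3.57, 4.79 and 3.87 FPKM to 10.1, 7.91 and 12.6 FPKM (log2 1.21, SE 0.21, adjusted p = 0.00665). Anxa1, a mediator of resolving inflammation, was at 9.52, 14.5 and 7.66 FPKM in room air and 17.4, 13.3 and 22.4 FPKM in wild-type retinopathy. It was not called (log2 0.74, adjusted p = 0.116), and RA WT 2 lay above OIR WT 2. Tgm2 was at 1.25, 1.54 and 2.24 FPKM in RA WT, 14.5, 8.33 and 22.8 in OIR WT and 4.49, 9.66 and 2.68 in OIR KO (log2 2.77, SE 0.46, adjusted p = 0.00745). OIR WT 2 lay near OIR KO 2 for this gene, and OIR KO 3 lay close to room air.

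Of the transcription factors, Cebpd rose and Cebpb was not called. Cebpd, a C/EBP factor induced by STAT3 in acute-phase responses, was at 2.14, 3.38 and 4.99 FPKM in RA WT 1, 2 and 3. For Cebpd, OIR WT 1, 2 and 3 stood at 66.4, 25.7 and 80.96 FPKM and OIR KO 1, 2 and 3 at 15.5, 70.1 and 11.02 FPKM (log2 3.77, SE 0.70, adjusted p = 0.0115 for OIR WT against RA WT). OIR WT 1, OIR WT 3 and OIR KO 2 were the highest libraries. Cebpb, its relative, was at 0.704, 0.507 and 3.16 FPKM in RA WT, 3.25, 5.41 and 3.24 in OIR WT and 0.808, 4.17 and 0.771 in OIR KO. Its OIR WT libraries also lay above RA WT without overlap, though barely above RA WT 3 (log2 1.41, adjusted p = 0.168). The order of its libraries was different, with OIR WT 2 the highest of all and OIR KO 1 and 3 at room air level. Hspb1, a small heat shock protein that binds filaments, was at 5.86, 8.95 and 8.26 FPKM in RA WT, 12.7, 11.7 and 17.1 in OIR WT and 5.6, 12.95 and 5.12 in OIR KO (log2 0.81, adjusted p = 0.13) and was called when only the 6 wild-type libraries were fitted (adjusted p = 0.0237).

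Of the enzymes, Etnppl, a phospholyase of ethanolamine phosphate that marks astrocytes, fell, and Aspg, an asparaginase, did not exceed 0.389 FPKM in any library. Etnppl (chromosome 3, 130617448 to 130637521, plus strand) was at 2.44, 3.78 and 3.45 FPKM in RA WT 1, 2 and 3. For Etnppl, OIR WT 1, 2 and 3 stood at 0.205, 0.515 and 0.269 FPKM and OIR KO 1, 2 and 3 at 0.878, 1.02 and 1.32 FPKM (log2 -2.17, SE 0.20, adjusted p = 0.000511 for OIR WT against RA WT). No values of the 3 groups overlapped, with RA WT highest and OIR WT lowest. Etnppl had come up in an earlier look at these data, so this order and its p-value are no independent evidence of a change.

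In OIR WT against RA WT the calls of Gfap, Vim, Serpina3n, Timp1, Cd44, Cd109 and Msn were lost when 1 of several libraries was left out, while their log2 changes stayed above 0. Over the 9 libraries left out in turn the log2 change was 2.93 to 3.76 for Gfap (with all libraries 3.25), 0.99 to 1.47 for Vim (1.15), 4.10 to 5.17 for Serpina3n (4.50), 3.16 to 4.33 for Timp1 (3.56), 1.51 to 2.07 for Cd44 (1.81), 1.01 to 1.36 for Cd109 (1.15) and 1.70 to 2.15 for Msn (1.87). Leaving out OIR WT 1 ended each of these calls, and so did leaving out OIR WT 3. All but Msn were also lost without RA WT 1 and without RA WT 2. Vim, Timp1, Cd44 and Cd109 were lost without RA WT 3 as well, and Vim without OIR KO 1. Over the libraries whose loss ended the call, the adjusted p lay at 0.0722 to 0.0836 for Gfap, 0.0617 to 0.143 for Vim, 0.0584 to 0.0699 for Serpina3n, 0.0697 to 0.103 for Timp1, 0.0696 to 0.103 for Cd44, 0.0792 to 0.118 for Cd109 and 0.0592 to 0.0644 for Msn. Nes, A2m, S100a6, S100a11, Cebpd, Anxa2, Anxa3, Emp1, Tgm2, Lad1, Ecel1, Fam107a and Etnppl kept their calls without each library in turn. Of these, Lad1, Ecel1, Fam107a and Etnppl had come up in an earlier look at these data, so their kept calls are no independent evidence. With a covariate from Y-linked genes in the model, 14 of the 20 calls remained. The others were Gfap (log2 3.05, adjusted p = 0.0655), Vim (log2 1.23, adjusted p = 0.0741), Serpina3n (log2 4.22, adjusted p = 0.0537), Timp1 (log2 3.27, adjusted p = 0.0807), Cd44 (log2 1.60, adjusted p = 0.0828) and Cd109 (log2 1.12, adjusted p = 0.0795). The calls of Vim (adjusted p = 0.0536) and Cd109 (0.0509) were also lost without the filter, and that of Cd109 with a pseudocount of 1 (0.0523) or quantile normalization (0.0598). The number of risen members was 11 without either OIR WT 1 or OIR WT 3 and stayed at 18 when OIR WT 2 was left out. The exons of Cp, Cebpb, Cebpd, Anxa2, Tnc, Tgm2 and Msn overlap exons of a gene on the other strand, with strand setting not given in the sources used here. Part of their FPKM may therefore belong to that gene.

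**Figure D3:**
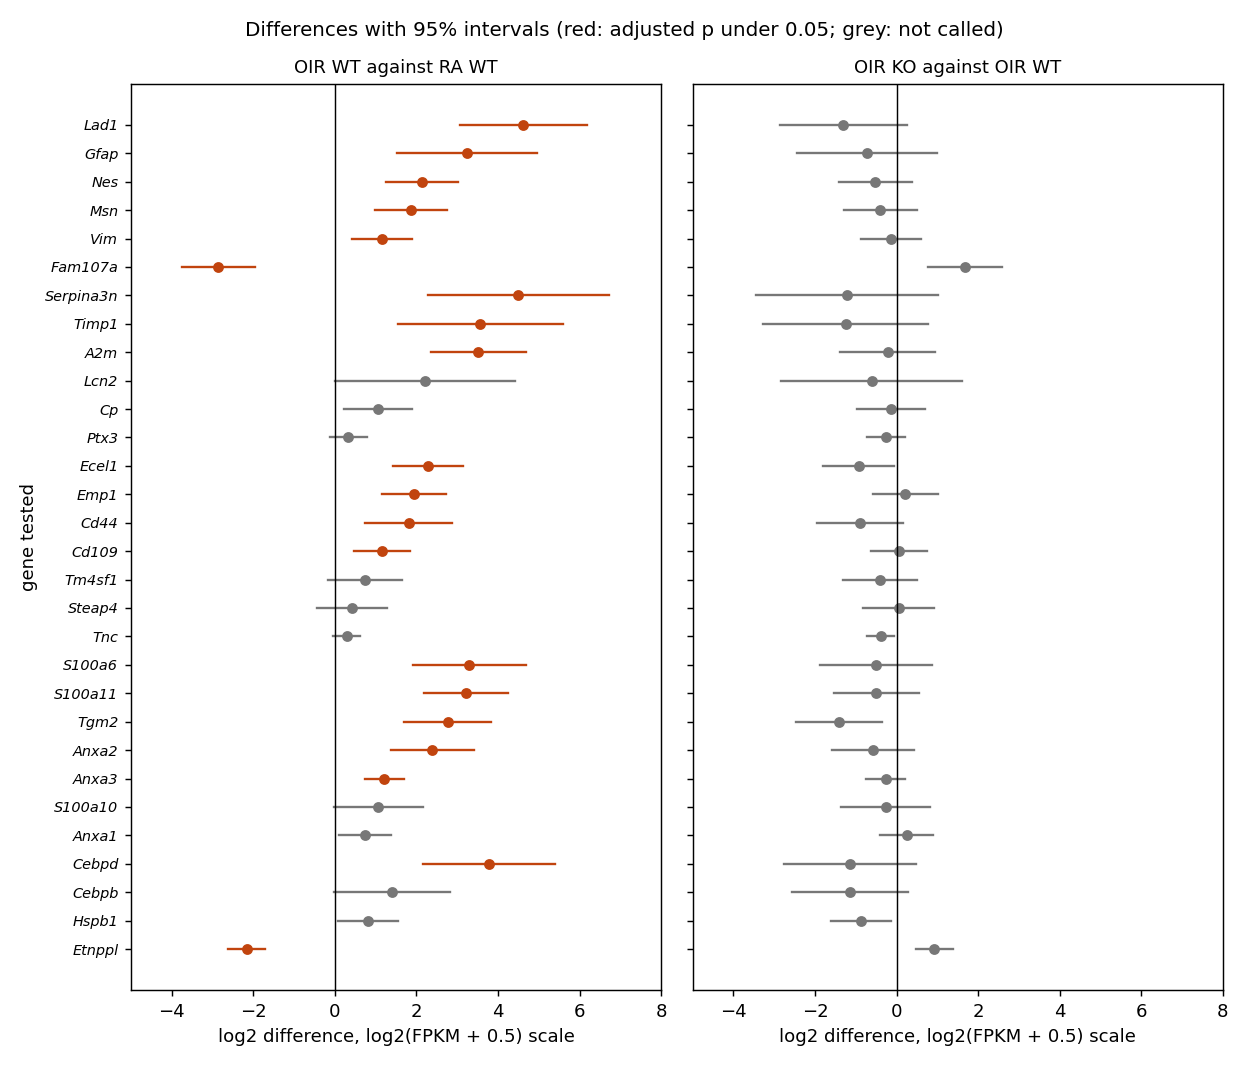
Log2 differences (points) with 95% intervals (lines) of the 30 tested genes, for OIR WT against RA WT on the left and OIR KO against OIR WT on the right. Genes in red passed the test. On the left 18 lie to the right of 0 and 2 to the left, and on the right none is red and most intervals span 0.

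Comparing OIR KO with OIR WT asks whether loss of IL-19 changes the retinal response to retinopathy. No member was called in limma's linear model, with or without its trend and robust options, against 0.134% of all genes tested (0.0574% called higher and 0.0765% lower, 9 and 12 genes). At an unadjusted p under 0.05, Tgm2, Tnc, Hspb1 and Ecel1 were lower in OIR KO and Fam107a and Etnppl higher, against 4.75% and 5.17% of all genes tested. The log2 difference was below 0 in 24 of the 32 members and its median was -0.40, against a median of -0.0027 over all genes tested and 50.7% of them below 0. The groups did not overlap in 3 of the 32 members, Fam107a, Etnppl and Slc10a6, all higher in OIR KO. This share is near the 9.73% of all genes tested. Slc10a6 was too low to be among the tested genes, and Fam107a and Etnppl had come up in an earlier look at these data. None was lower without overlap, against 7.98% of all genes.

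OIR KO 2 resembled OIR WT 1 and 3 while OIR KO 1 and 3 were lower, and the intervals of the differences were wide. Gfap differed by log2 -0.72 (95% interval -2.45 to 1.00, adjusted p = 0.803), an interval that holds both a large decrease and an increase. For Serpina3n the difference was -1.22 (-3.45 to 1.01, adjusted p = 0.737) and for Timp1 -1.25 (-3.27 to 0.77, adjusted p = 0.698). Vim, at -0.13 (-0.87 to 0.60), and Anxa3, at -0.26 (-0.74 to 0.22), had narrower intervals that also spanned 0. Tgm2 was at 4.49, 9.66 and 2.68 FPKM in OIR KO and 14.5, 8.33 and 22.8 FPKM in OIR WT, with only OIR KO 2 above the lowest OIR WT library (log2 -1.42, SE 0.46, adjusted p = 0.393). Fam107a was at 3.17, 3.27 and 6.9 FPKM in OIR KO and 1.21, 1.59 and 0.366 FPKM across OIR WT (log2 1.68, 95% interval 0.78 to 2.58, adjusted p = 0.22). Etnppl showed the same order, at 0.878, 1.02 and 1.32 FPKM against 0.205, 0.515 and 0.269 FPKM (log2 0.93, 95% interval 0.48 to 1.38, adjusted p = 0.185). Hspb1 became the only called member when OIR KO 2 was left out (log2 -1.27, adjusted p = 0.0471). In that fit 37 of all genes tested were called lower and 5 higher, against 12 and 9 with all libraries. OIR KO 2 held the highest Hspb1 value of its group, 12.95 FPKM against 5.6 and 5.12 FPKM, so leaving it out widens the difference. In the other 18 of the 19 alternatives Hspb1 was not called.

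Against RA WT, the same room air group, 10 members rose in OIR KO (Nes, A2m, S100a6, S100a11, Anxa2, Anxa3, Emp1, Cd109, Lad1 and Msn) and Etnppl fell. Of all genes tested, 4.75% were called higher and 5.69% lower. OIR KO and RA WT differ in genotype as well as in retinopathy. Without room air retinas of the knockout, the parts of these cannot be told apart. Of the risen members, Lad1 and Cd109 were under 0.5 FPKM in every RA WT library and entered the test through the retinopathy libraries. Emp1 reached 0.5 FPKM in room air only in RA WT 3 and also needed them to enter the test. Lad1 and Etnppl had come up in an earlier look at these data. A2m rose by log2 3.30 (SE 0.51, adjusted p = 0.00861) in OIR KO and by 3.52 in OIR WT, and Emp1 by 2.15 and 1.94. Gfap (2.52, adjusted p = 0.0695), Serpina3n (3.28, adjusted p = 0.0685) and Cebpd (2.62, adjusted p = 0.0528) were not called in OIR KO, although each was above every room air library in all 3 OIR KO libraries. The number of risen members was 17 without OIR KO 3, 4 without OIR KO 2 and 3 without OIR KO 1. It was also 3 without RA WT 1, 5 without RA WT 2 and 3 without RA WT 3. Over all genes tested, 744 were called higher with all libraries, 850 without OIR KO 3, 298 without OIR KO 2 and 284 without OIR KO 1. Without RA WT 1, 2 and 3 in turn, 444, 480 and 297 of all genes were called higher, so these counts moved beyond the members. Only A2m, S100a11 and Emp1 of the risen members, and the fallen Etnppl, kept their call without each library in turn. With the Y-linked covariate 7 of the 11 calls remained, and Nes, Anxa2, Cd109 and Msn were lost at log2 changes of 1.61, 1.81, 1.21 and 1.47, against 1.62, 1.81, 1.22 and 1.47 without it (adjusted p = 0.056, 0.0597, 0.0542 and 0.0706). Cebpd was called with a filter of 1 FPKM (adjusted p = 0.0497) and Ecel1 with a pseudocount of 0.1 (adjusted p = 0.0191).

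Across the 6 retinopathy libraries the members kept much the same order. OIR WT 1, OIR WT 3 and OIR KO 2 were the 3 highest libraries in 25 of the 32 members (78.1%), against 13.6% of all genes tested. OIR WT 2 was the lowest of its group in 28 members (87.5%, against 43.8% of all genes tested), and OIR KO 2 the highest of its group in 30 (93.8%, against 37.6%). The exceptions to the common order were Cebpb, Anxa1, Emp1, Aspg, Slc10a6 and the fallen genes Fam107a and Etnppl. In room air RA WT 3 was the highest library in 23 members (71.9%, against 36.4%), among them Gfap, Serpina3n, Lcn2, Cebpb and Steap4. The median SD of log2(FPKM + 0.5) within a group was 0.76 in OIR KO, 0.54 in OIR WT and 0.29 in RA WT over the members, against 0.14, 0.14 and 0.17 over all genes tested.

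Other cell types moved with this order in part. The counts of called genes here and in the lists that follow stand against 8.04% of all genes tested called higher in OIR WT and 7.92% lower. Counts of genes that kept the order stand against 13.6%. Erythrocyte genes, led by the globins, summed to 1171, 1431 and 1069.9 FPKM in OIR WT 1, OIR WT 3 and OIR KO 2, to 512 FPKM in OIR WT 2 and to 112 and 113 FPKM in OIR KO 1 and 3. In RA WT the sum was 82.5 to 158 FPKM, and all 5 tested members of that list of 7 rose in OIR WT. OIR WT 1, OIR WT 3 and OIR KO 2 were the highest libraries in 5 of the 7 erythrocyte genes. Microglia and macrophage markers rose in 12 of 18 genes. Their sum was 44.7 to 51.8 FPKM in RA WT, 109.5 to 144 in OIR WT and 92.6 to 119 in OIR KO, with the same 3 libraries highest in 6 of the 18 genes. Of 10 markers of pericytes and smooth muscle 6 rose. They summed to 45.4 to 59.6, 105 to 156 and 84.8 to 142 FPKM in RA WT, OIR WT and OIR KO and kept that order in 7 of 10 genes. Endothelial markers rose in 5 and fell in 3 of 15 and summed to 114 to 147, 127 to 168 and 158 to 218 FPKM. They kept the order in 2 of 15, near the share over all genes tested. The 14 neutrophil and lymphocyte genes summed to 0.798 to 1.19 FPKM in RA WT, 1.5 to 2.25 in OIR KO and 2.36 to 2.88 in OIR WT, without overlap. Cd8a, the only one high enough to test, rose. S100a8 and S100a9 were listed at 0 in RA WT and reached 0.563 and 1.17 FPKM in OIR WT, Mpo was at most 0.0185 FPKM, and Elane and Cd3g were listed at 0 in every library. Lens genes were highest in RA WT 1 (30.5 FPKM) and OIR KO 2 (18.8 FPKM) and no higher than 6.26 FPKM elsewhere, and did not follow the order of the members. The part of these cell types in the members' values was not tested.

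**Figure D4:**
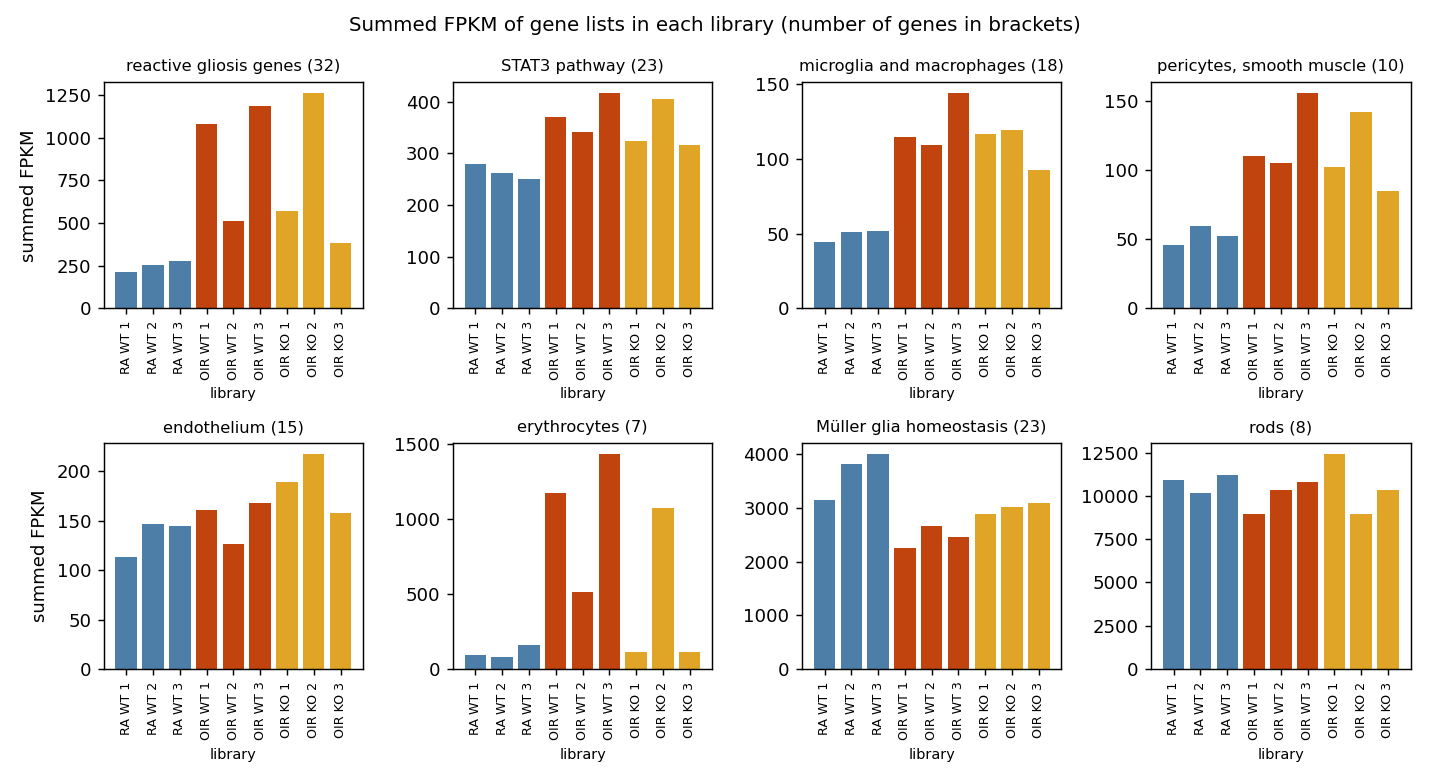
Summed FPKM (bars from 0) of 8 gene lists in each library, with the number of genes in brackets. The reactive gliosis and erythrocyte panels share the high bars of OIR WT 1, OIR WT 3 and OIR KO 2, the microglia bars of all retinopathy libraries lie between 92.6 and 144 FPKM, and Müller glia homeostasis genes are lowest in OIR WT.

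Genes of the STAT3 pathway, which drives much of the glial reaction, rose in 7 of 23 cases and fell in 1 in OIR WT, with 4 too low to test and a median log2 change of 0.23 (0.02 over all genes tested). Stat3 itself was at 13, 12.7 and 12.7 FPKM in RA WT 1, 2 and 3. For Stat3, OIR WT 1, 2 and 3 stood at 48.8, 32.4 and 56.5 FPKM and OIR KO 1, 2 and 3 at 26.9, 58.3 and 28.9 FPKM (log2 1.77, SE 0.30, adjusted p = 0.00715 for OIR WT against RA WT). Osmr, the oncostatin M receptor, which is also on the list of genes shared by reactive astrocytes, rose from 1.2, 1.67 and 1.3 FPKM to 6.78, 5.42 and 10.4 FPKM (log2 2.05, SE 0.37, adjusted p = 0.00905) and was at 3.74, 10.1 and 3.46 FPKM in OIR KO. Both followed the order of the members, with OIR WT 2 the lowest OIR WT library. Cntfr, the receptor of ciliary neurotrophic factor, fell (log2 -0.53, adjusted p = 0.0292). Socs3, a STAT3 target that limits the pathway, and the cytokine Lif are named after their values were seen: Socs3 was at 1.55, 2.01 and 2.15 FPKM in RA WT, 25.4, 9.59 and 45.01 in OIR WT and 6.33, 33.2 and 2.9 in OIR KO (log2 3.26, SE 0.83, adjusted p = 0.0333) and Lif at 0.0459, 0.0852 and 0.177 FPKM in RA WT, 1.9, 1.42 and 5.24 in OIR WT and 0.61, 1.88 and 0.345 in OIR KO (log2 2.31, SE 0.46, adjusted p = 0.0122). Lif was under 0.5 FPKM in every RA WT library and entered the test through the retinopathy libraries, so its p-value is no independent evidence of a change. No gene of the list was called in OIR KO against OIR WT in limma's model (adjusted p at least 0.447, with 1 of 19 tested at an unadjusted p under 0.05, against 9.91% of all genes tested).

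Müller glia homeostasis genes mostly went the other way. Of 23 genes, 12 fell, 3 rose and 8 were not called in OIR WT, and the median log2 change was -0.49. Kcnj10, the potassium channel Kir4.1 that buffers potassium, was at 16.3, 19.5 and 19.96 FPKM in RA WT, 9.69, 8.41 and 7.31 in OIR WT and 11.5, 12.4 and 12 in OIR KO (log2 -1.09, SE 0.12, adjusted p = 0.00114 for OIR WT against RA WT). Dkk3, a secreted Müller cell protein, fell from 215, 269.8 and 283 FPKM to 129, 147 and 141 FPKM (log2 -0.87, SE 0.12, adjusted p = 0.00276). Sox9, a transcription factor of glia, rose from 5.28, 5.78 and 5.11 FPKM to 12.95, 13.6 and 15.3 FPKM (log2 1.29, SE 0.20, adjusted p = 0.00447), and Cd9, a tetraspanin, rose by log2 1.12 (adjusted p = 0.0204). The summed level of the list was 3151 to 4008 FPKM in RA WT, 2263 to 2669.7 in OIR WT and 2880.4 to 3093 in OIR KO. In OIR KO against OIR WT none of the 23 was called in limma's model, 9 were higher and 1 lower at an unadjusted p under 0.05, against 5.17% and 4.75% of all genes tested, and the median was 0.24.

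Reactive astrocytes are also described by genes typical of neuroinflammation and genes typical of ischaemia, and the labels served here as lists only. Of 13 neuroinflammatory genes, 5 rose and 1 fell in OIR WT (1 not tested), with a median log2 change of 0.83. C3, the central complement protein, was at 0.299, 0.185 and 0.496 FPKM in RA WT, 1.92, 1.62 and 1.89 in OIR WT and 0.867, 1.44 and 0.639 in OIR KO (log2 1.50, SE 0.22, adjusted p = 0.00338 for OIR WT against RA WT). C3 was under 0.5 FPKM in every RA WT library and entered the test through the retinopathy libraries. Its p-value is therefore no independent evidence of a change. H2-T23, a class Ib histocompatibility gene, rose from 2.09, 2.75 and 2.82 FPKM to 7.86, 5.15 and 8.48 FPKM (log2 1.31, SE 0.21, adjusted p = 0.0046), and Fkbp5, a chaperone induced by glucocorticoids, fell (log2 -0.61, adjusted p = 0.0191). Of the ischaemic genes, 6 are members, of which Emp1 and Cd109 rose, Ptx3, S100a10 and Tm4sf1 were not called and Slc10a6 was not tested. The other 6 gave 0 calls in limma's model (5 tested, 2 at an unadjusted p under 0.05, against 30.4% of all genes tested). The highest of these per length were Sphk1, a sphingosine kinase, at 5.03, 6.43 and 5.77 FPKM in RA WT, 4.49, 4.12 and 5.7 in OIR WT and 4.58, 5.94 and 4.95 in OIR KO, and Clcf1, a cytokine of the interleukin-6 family, at 2.36, 1.88 and 1.6 FPKM in RA WT, 1.96, 1.4 and 3.68 in OIR WT and 1.56, 3.94 and 2.16 in OIR KO.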

How the data were processed

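Frozen retinas were lysed in Trizol for RNA, from which NEBNext Ultra libraries were prepared, per the labels' protocols. The submitters' processing notes name HISAT2 and build GRCm38, with quantifier, annotation and strand not given in the sources used here. FPKM values were deposited by the authors as 1 table for all libraries, and its columns were matched to samples by their labels. A value of 0 is described as listed at 0.

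Values were taken as log2(FPKM + 0.5) without further scaling, a scale on which changes of low genes are understated. Genes at 0.5 FPKM or more in at least 3 of the 9 libraries (15678) were fitted with limma 3.58.1 in R 4.3.3, with 1 mean per group, the trend and robust options and no covariate. P-values are two-sided with Benjamini-Hochberg adjustment over all genes. The fit was tested on simulated data with noise drawn independently for each gene and library. In the real data many genes shift together by library, so that test does not show whether the calls hold here. Group values are means ± SD. Positions are from GENCODE M21 (22022 of 22036 Ensembl IDs matched), and promoters from RefSeq on GRCm38.p6.

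All 32 members are named. Of each related list up to 2 risen and 2 fallen genes with the smallest p were named, or the 2 most abundant where none was called. Members and lists were chosen with earlier results of these data known. The alternatives tried were other pseudocounts, filters and scalings, limma without trend and robust, a fit of the compared groups alone, a replicate block, a covariate from Y-linked genes, and each library left out. Protein sequences were not used here.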

Additional observations from a re-analysis of the deposited data

How the results depend on the processing

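Without a single library, the risen members in OIR WT against RA WT numbered 11 to 20, and the called genes 546 to 1449 upwards and 485 to 1365 downwards. In OIR KO against OIR WT there were 0 to 1 lower members, and 2 to 7 genes called higher and 8 to 37 lower. In OIR KO against RA WT there were 3 to 17 risen and 1 to 2 fallen members, and 284 to 850 genes called higher and 414 to 941 lower. Fewer libraries were fitted in each case, and a group left with 2 libraries is assumed to vary like the others.

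The replicate numbers of the labels are not stated to pair libraries, and same-numbered libraries did not deviate together (correlations of -0.35 to 0.13 over genes, each library not always closest to its own number). With a replicate block, genes called higher fell to 802 in OIR WT against RA WT, genes called in OIR KO against OIR WT came to 1 higher and 7 lower, and OIR KO against RA WT came to 3 risen members and 411 genes called higher. Of the called members, 14 of 20 remained in OIR WT against RA WT and 4 of 11 in OIR KO against RA WT. With the Y-linked covariate, 814 genes were called higher and 767 lower in OIR WT against RA WT, 5 genes higher in OIR KO against OIR WT, and 6 members rose in OIR KO against RA WT. Fitted on the 6 libraries compared alone, OIR KO against RA WT gave 481 genes called higher. In OIR KO against OIR WT, genes called higher came to 4 with a pseudocount of 1, 4 without the filter, 3 with a filter of 1 FPKM and 4 without trend and robust. Beyond the changes in fitted libraries, covariates and genes that define these alternatives, the cause was not tested.

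None of the 30 tested members changed sign in OIR WT against RA WT under the 19 alternatives, of which the 1 FPKM filter left out Steap4 and Cd109. Aspg and Slc10a6 were not refitted. In OIR KO against OIR WT, leaving out 1 library gave log2 differences of -0.46 to 0.18 for Vim, -0.82 to 0.10 for A2m, -0.71 to 0.075 for S100a10, -0.57 to 0.090 for Cp, -0.38 to 0.32 for Steap4, -0.10 to 0.55 for Emp1 and -0.29 to 0.35 for Cd109. In OIR KO against RA WT the ranges were -0.46 to 0.17 for Hspb1, -0.35 to 0.85 for Cebpb, -0.20 to 0.0058 for Tnc and -0.083 to 0.64 for Tm4sf1, and Ptx3 came to -0.0084 with quantile normalization. None of these was called in the comparison in question. No read counts are given, so the counting error of values near 0 FPKM was not estimated.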

Other observations

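Genes outside the 32 but of the same families moved in part. Of 14 other S100 genes, 5 were high enough to test, and in OIR WT against RA WT S100a16 rose from 17.4, 27.1 and 15.5 FPKM to 56.97, 27.3 and 47.6 FPKM (log2 1.10, SE 0.31, adjusted p = 0.047). S100b, a calcium-binding protein of glia, fell from 6.29, 7.65 and 5.65 FPKM to 4.24, 3.68 and 4.26 FPKM (log2 -0.62, SE 0.14, adjusted p = 0.0179). S100a8 and S100a9, the S100 genes of neutrophils, were listed at 0 in RA WT and reached at most 0.563 and 1.17 FPKM elsewhere, so they were not tested. Of 8 other annexins with values, Anxa7 (log2 0.65, adjusted p = 0.00463) and Anxa4 (log2 0.70, adjusted p = 0.0426) rose, 4 were not called and 2 were too low to test. S1pr3, a sphingosine phosphate receptor shared by reactive astrocytes, rose from 6.86, 7.75 and 7.32 FPKM to 17.5, 14.1 and 20.2 FPKM (log2 1.18, SE 0.25, adjusted p = 0.0155).

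Retinal astrocyte genes did not move together. Of 12, Aldh1l1 (log2 0.73, adjusted p = 0.0371) and Pdgfra (log2 0.69, adjusted p = 0.038) rose in OIR WT, S100b fell, 5 were not called and 4 were too low to test. Their summed level was 90.9 to 104 FPKM in RA WT, 101 to 115 in OIR WT and 103 to 128 in OIR KO. Among 11 other filament and scar genes, Cspg4, Lmna, Des and Synm rose and Bcan fell, all named after their values were seen. The proteoglycan genes Ncan, Vcan, Cspg5 and Ptprz1 were not called. None of the genes in these lists was called in OIR KO against OIR WT in limma's model. There 3 of them (Synm, Plec and Gja1) passed an unadjusted p under 0.05, against 9.91% of all genes tested. They were 2 of the 10 tested filament and scar genes and 1 of the 8 tested astrocyte genes. Of the lists for tissue next to the retina, 1 of 10 lens genes, 1 of 9 pigment epithelium genes and 2 of 8 genes of cornea, iris and ciliary body fell in OIR WT against RA WT and none rose, with 3, 7 and 4 of them tested.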
